A study of Danio rerio with 18 samples.

Results

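The difference between her3 knockout and wild-type zebrafish (Danio rerio) embryos was measured at 2 ages, and the question here was which genes differed by another amount at 72 hours post fertilisation (hpf) than at 24 hpf. For each gene the difference of knockout from wild type at 24 hpf was subtracted from that at 72 hpf, and this interaction was tested with limma, a linear model fitted across all genes. The 4 groups that enter it hold 12 of the series' 18 libraries, and 20738 of the 25535 genes in the deposited table passed the filter on low values and were tested. The groups were embryos of genotype her3 -/- at 72 hpf, the WIK wild-type strain at 72 hpf, her3 -/- at 24 hpf and WIK at 24 hpf, with 3 libraries each. Every library was made from poly(A) RNA of a pool of 20 to 25 whole embryos, all taken out of the chorion at 24 hpf. None of the 4 groups received an injection or another treatment, per the labels. The sample titles call the knockout line her3_38aa, and neither its allele nor the number of founder fish is described there. The remaining 6 libraries were of WIK embryos injected with a her3 morpholino or a mismatch morpholino and collected at 24 hpf. They entered the filter on low values and the estimate of the spread, and levels with the mismatch morpholino are quoted for some genes.

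her3 encodes a basic helix-loop-helix repressor of the Hairy/Enhancer of split family, and in zebrafish it is known as a repressor of the proneural gene neurog1 in the neural plate. Between 24 and 72 hpf the zebrafish embryo ends somite formation, hatches, and gains a working retina, a differentiated lens and exocrine pancreas, and body-wide daily rhythms of transcription. The circadian clock of zebrafish is directly light-responsive in most tissues: light induces the clock repressors per2 and cry1a together with a set of DNA repair genes, and the clock-driven repressors of the NR1D and NFIL3 families follow in a feedback loop.

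Libraries labelled as her3 -/- are called KO-labelled here. The 12 libraries held between 14214136 reads, in WIK_24hpf replicate 1, and 21949777 reads, in her3_KO_24hpf replicate 3. WIK_24hpf replicate 1 and her3_KO_72hpf replicate 3 stood apart within their groups, with a chi-square per degree of freedom of 27.67 and 31.86 and of 10.41 and 6.113 against their partners, while the other pairs of the 4 groups lay between 3.638 and 4.596. All libraries were kept, and the calls lost without these 2 are given below. The labels were checked with markers of age. The hatching gland protease gene he1.1 had 3.84 to 9.98 CPM (read counts scaled to library size) in KO-labelled and 13 to 17.6 CPM in WIK libraries at 72 hpf, against 2204 to 2292 CPM in KO-labelled and 2216 to 3480.0 CPM in WIK libraries at 24 hpf. The green cone opsin gene opn1mw1 had 232 to 374 CPM in KO-labelled and 479 to 563 CPM in WIK libraries at 72 hpf, against at most 0.170 CPM in any of the 6 libraries at 24 hpf. Of the other digestive and photoreceptor markers set for 72 hpf, prss1, fabp10a and GNAT2 were likewise higher at that age. FABP2 and ela2l went the other way. FABP2 averaged 8.43 CPM in KO-labelled and 10.3 CPM in WIK libraries at 72 hpf, against 321 and 412 CPM at 24 hpf. For ela2l the means were 0.256 and 1.08 CPM at 72 hpf, against 1.18 and 1.76 CPM at 24 hpf. The targeted transcript itself was not lower in the libraries labelled knockout, so every direction below follows the labels. her3 (listed as HES3 in the table of symbols) had 2.51, 1.96 and 1.97 CPM in KO-labelled and 1.42, 1.22 and 1.42 CPM in WIK libraries at 72 hpf. her3 at 24 hpf had 22.2, 22.1 and 22.1 CPM in KO-labelled and 11, 9.24 and 9.82 CPM in WIK libraries. It was higher with the KO label at both ages, and the interaction of -0.60 ± 0.17 on the log2 scale did not pass the test (limma, adjusted p = 0.053).

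Differences below are in log2(CPM + 0.5) ± standard error, KO-labelled minus WIK, and the interaction is the difference at 72 hpf minus that at 24 hpf, so a positive interaction means that a gene was higher, relative to WIK, at 72 hpf than at 24 hpf. Adjusted p-values are Benjamini-Hochberg values of limma over all 20738 genes, and a gene is called at an adjusted p under 0.05. Replicates are separate pools of embryos, and each p-value is set against a variation from pool to pool estimated for each gene over all 6 groups together. The standard error of a gene is therefore the same at both ages and does not measure the spread within 1 group. For FOS, for example, the SD was 23.3 CPM in WIK at 24 hpf and 0.242 CPM in WIK at 72 hpf. Genes named for the size of their interaction had to show no overlap of KO-labelled and WIK libraries at each age with a called difference. Absence of overlap is therefore not a result for these genes.

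The interaction was called for 963 of 20738 genes (4.64%), 518 of them positive (2.5%) and 445 negative (2.15%), and 462 of them (2.23%) were at least 2-fold, 257 positive (1.24%) and 205 negative (0.989%). The difference within an age was called for more genes: 2245 at 72 hpf (10.8%) and 2620 at 24 hpf (12.6%). The calls shared by both ages numbered 777, which is 34.6% of those at 72 hpf and 29.7% of those at 24 hpf, and 708 of the 777 (91.1%) had the same sign at both ages. A gene called at 1 age and not at the other is not thereby shown to differ between them, and the interaction was called for only 361 of the 1468 genes called at 72 hpf alone (24.6%) and for 409 of the 1843 called at 24 hpf alone (22.2%). Of the 963 genes with a called interaction, then, 361 were called at 72 hpf only, 409 at 24 hpf only, 69 at both in opposite directions, 62 at both in the same direction and 62 at neither. Mean levels reached 1 CPM at both ages for 731 of the 963, while 109 lay below that at 72 hpf and 166 at 24 hpf. Without the 2 libraries that stood apart 755 genes were called, and 646 of the 963 were among them. Of the genes named below, kcp, her4.2, NR2C1, pcdh8, KLF9, CDH15, XPC, TXNIP (ENSDARG00000070000), irg1l and FOSL1 lost the call without these 2 libraries, at adjusted p-values between 0.0501 for kcp and 0.155 for FOSL1. Leaving out any 1 of 5 libraries lowered the number by more than 1.5 times: 559 genes were called without her3_KO_24hpf replicate 1, 605 without her3_KO_24hpf replicate 3, 617 without WIK_72hpf replicate 2, 626 without WIK_72hpf replicate 3 and 589 without her3_KO_72hpf replicate 2.

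**Figure D1:**
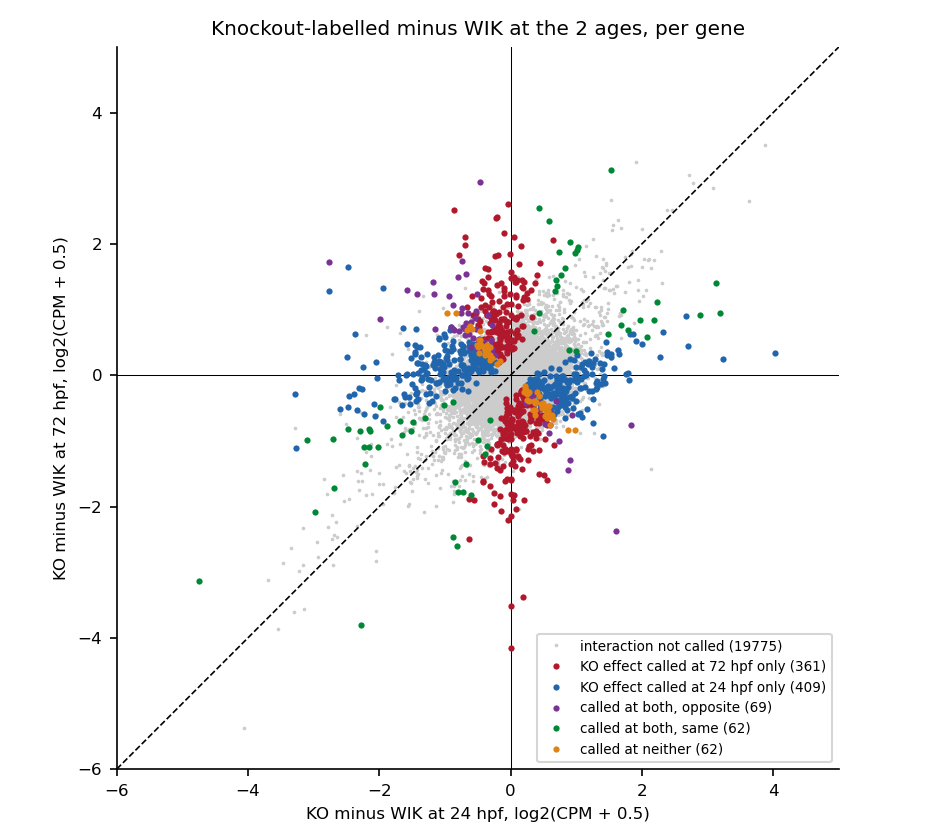
Each point is a gene, placed by the difference of KO-labelled from WIK libraries at 24 hpf (horizontal) and at 72 hpf (vertical), both in log2(CPM + 0.5). The dashed line marks equal differences, coloured points are the 963 genes with a called interaction, and the 361 genes called at 72 hpf only spread along the vertical axis while the 409 called at 24 hpf only spread along the horizontal one.

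Circadian clock repressors were among the 3 gene lists with the largest shares of called interactions, beside exocrine pancreas (47.1%) and immediate-early genes (45%), and 8 of the 9 called members were called at 72 hpf only. Of 19 tested members 9 had a positive interaction, 0 a negative one and 10 did not pass (47.4%, against 4.64% of all genes), with a median interaction of 0.56 against -0.03 over all genes. At 72 hpf 11 of the 19 were higher and 0 lower in KO-labelled embryos, against 1 higher and 2 lower at 24 hpf. The shares over all genes were 5.11% higher and 5.71% lower at 72 hpf, and 6.01% and 6.63% at 24 hpf. Counts within an age in the lists below are to be read against these shares as well. The lists were chosen with earlier results of these data known, so the shares called describe these data and are not an independent test. Leaving out any 1 library left 8 or 9 positive interactions. The order of these lists changed with the settings: with a pseudocount of 1, 9 of the 19 clock repressors and 10 of the 17 exocrine pancreas genes were called.

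PER2, a light-inducible member of the period family of clock repressors, had 55, 58.2 and 64.6 CPM in KO-labelled and 8.1, 6.32 and 7.37 CPM in WIK libraries at 72 hpf. At 24 hpf it had 9.1, 7.92 and 7.84 CPM in KO-labelled and 9.17, 12.9 and 13.2 CPM in WIK libraries. The KO-labelled libraries thus at 72 hpf stood far above the other 9 libraries, while those at 24 hpf lay just below the WIK range of that age. The difference was 2.95 ± 0.13 at 72 hpf and -0.47 ± 0.13 at 24 hpf, called in opposite directions (adjusted p = 6e-10 and 0.029), and the interaction was 3.41 ± 0.19 (adjusted p = 2e-08). CRY1 (ENSDARG00000045768), a cryptochrome that represses the clock, had 66.7, 69.1 and 77.9 CPM in KO-labelled and 18.9, 16.7 and 17.5 CPM in WIK libraries at 72 hpf. CRY1 levels at 24 hpf were 26.2, 26.1 and 28.2 CPM in KO-labelled and 21.2, 25.1 and 25.4 CPM in WIK libraries. Its interaction was 1.81 ± 0.12 (adjusted p = 3.8e-07), with no called difference at 24 hpf. The second CRY1 gene in the table (ENSDARG00000011583) gave an interaction of 0.03 ± 0.20, and PER3 one of 0.12 ± 0.17; neither passed the test (adjusted p = 0.95 and 0.72).

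NR1D1, NR1D2 and nr1d2a encode REV-ERB nuclear receptors, which repress the clock activator BMAL1. NR1D1 had 34.7, 48.7 and 54.7 CPM in KO-labelled and 11.3, 12.6 and 13.4 CPM in WIK libraries at 72 hpf. NR1D1 at 24 hpf had 1.5, 1.34 and 1.63 CPM in KO-labelled and 1.78, 1.8 and 1.74 CPM in WIK libraries. All 3 KO-labelled libraries were above all 3 of WIK at 72 hpf, at a level that neither group approached at 24 hpf, and the interaction was 2.02 ± 0.21 (adjusted p = 4.2e-05). nr1d2a averaged 189 ± 17.4 CPM in KO-labelled and 86.4 ± 6.3 CPM in WIK libraries at 72 hpf, and 7.93 ± 0.643 CPM in KO-labelled and 9.01 ± 1.21 CPM in WIK libraries at 24 hpf (SD, n = 3 each; interaction 1.29 ± 0.14, adjusted p = 7.1e-05). NR1D2 had a smaller interaction of 0.74 ± 0.09 (adjusted p = 0.00023). BMAL1 (ENSDARG00000035732) itself was lower with the KO label at 72 hpf, at 3.97 ± 1.06 CPM in KO-labelled and 13 ± 1.46 CPM in WIK libraries (SD, n = 3 each), a difference of -1.61 ± 0.28 (adjusted p = 0.001), but its interaction of -1.04 ± 0.40 did not pass (adjusted p = 0.15). BHLHE40, a helix-loop-helix repressor of clock targets, had 117, 115 and 119 CPM in KO-labelled and 63.1, 64.1 and 59.3 CPM in WIK libraries at 72 hpf, while at 24 hpf both groups lay between 103 and 130.1 CPM (interaction 0.75 ± 0.09, adjusted p = 0.00017). For PER1 (ENSDARG00000012499) the interaction of 0.56 ± 0.15 (adjusted p = 0.045) is insecure: it was lost without any of 10 of the 12 libraries, all but WIK_24hpf replicate 1 and her3_KO_72hpf replicate 1, at an adjusted p of up to 0.10.

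The second loop of the clock is formed by the activator tefa, of the PAR bZIP family, and its competitors of the NFIL3 family. Of 19 tested clock activators and second-loop genes 4 had a positive interaction and 0 a negative one (21.1%). nfil3-6 had 9.26, 10.9 and 9.93 CPM in KO-labelled and 3.71, 3.88 and 2.95 CPM in WIK libraries at 72 hpf. nfil3-6 levels at 24 hpf were 2.1, 2.14 and 2.57 CPM in KO-labelled and 2.38, 2.64 and 2.66 CPM in WIK libraries, an interaction of 1.54 ± 0.18 (adjusted p = 0.0001). nfil3-5 followed with an interaction of 0.73 ± 0.12 (adjusted p = 0.0018). NFIL3 and tefa were called in opposite directions at the 2 ages. NFIL3 was higher by 0.40 ± 0.11 at 72 hpf and lower at 24 hpf by a difference of -0.49 ± 0.11, and tefa by 0.35 ± 0.08 and -0.30 ± 0.08, with interactions of 0.89 ± 0.15 and 0.65 ± 0.11 (adjusted p = 0.0025 and 0.0025). Both CLOCK genes, bmal2 and the ROR family did not pass. The list's median interaction, at -0.06, was close to that of all genes.

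**Figure D2:**
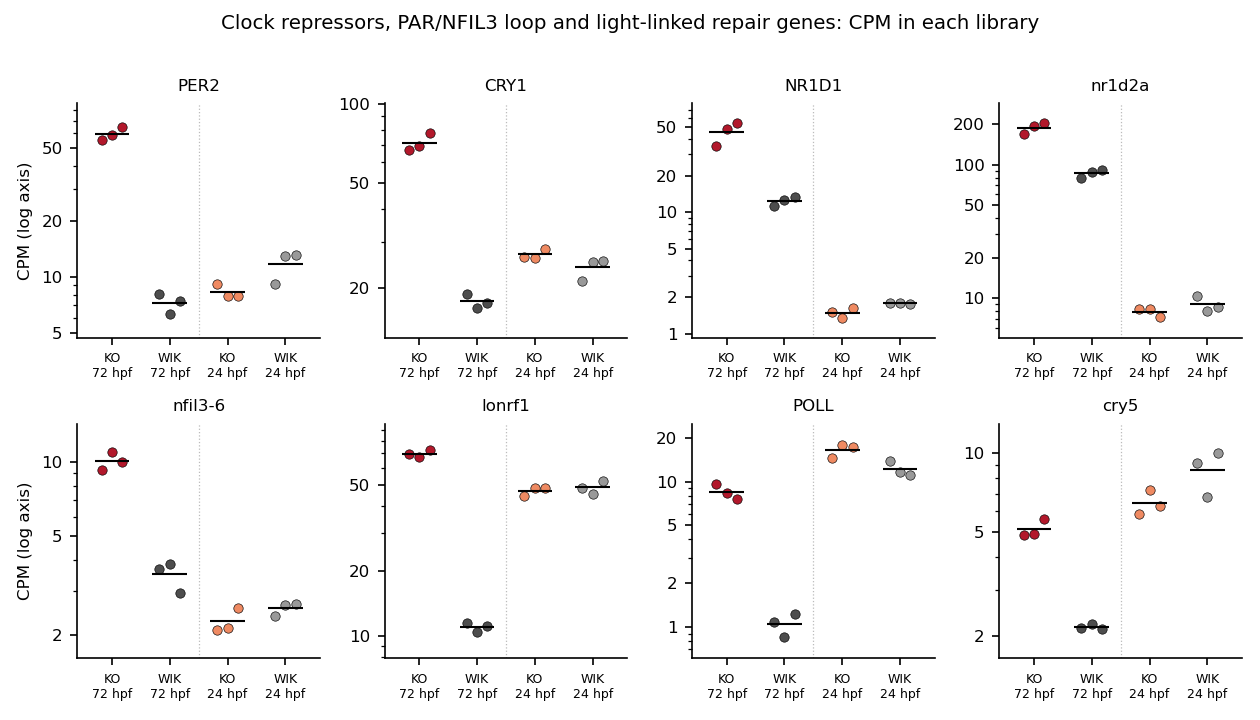
CPM of 8 clock and light-linked repair genes in each library on log axes, with KO-labelled left of WIK and 72 hpf left of 24 hpf; points are libraries and bars group means. In each panel the 3 KO-labelled libraries at 72 hpf lie above the 3 WIK libraries of that age, while at 24 hpf the 2 groups overlap or lie close together.

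Several genes that light induces in zebrafish outside the clock behaved alike. lonrf1, which encodes a RING finger protein with a LON protease-like domain, had 69.4, 67.7 and 72.6 CPM in KO-labelled and 11.5, 10.4 and 11.1 CPM in WIK libraries at 72 hpf. At 24 hpf it had 44.5, 48.6 and 48.2 CPM in KO-labelled and 48.5, 45.3 and 52.3 CPM in WIK libraries. The 9 libraries other than WIK at 72 hpf thus shared a range of 44.5 to 72.6 CPM, and only WIK at 72 hpf lay below it. With 2.66 ± 0.11 (adjusted p = 5.5e-10) this was the interaction with the lowest p of all named genes. POLL, a DNA polymerase of base excision repair and end joining, had 9.57, 8.37 and 7.64 CPM in KO-labelled and 1.07, 0.85 and 1.22 CPM in WIK libraries at 72 hpf. POLL at 24 hpf had 14.5, 17.9 and 17.2 CPM in KO-labelled and 13.8, 11.7 and 11.1 CPM in WIK libraries. It was called higher at both ages, by 2.55 ± 0.12 at 72 hpf and 0.43 ± 0.12 at 24 hpf, and the interaction was 2.12 ± 0.18 (adjusted p = 3.5e-06). cry5, the 6-4 photolyase that repairs ultraviolet damage, had 4.86, 4.93 and 5.58 CPM in KO-labelled and 2.15, 2.23 and 2.13 CPM in WIK libraries at 72 hpf. cry5 levels at 24 hpf were 5.85, 7.23 and 6.26 CPM in KO-labelled and 9.17, 6.81 and 9.98 CPM in WIK libraries, an interaction of 1.46 ± 0.21 (adjusted p = 0.00069). In all, 4 of 21 tested light-linked repair genes had a positive and 1 a negative interaction (23.8%), with a median of 0.31. The negative one was ogg1, an 8-oxoguanine glycosylase, at -1.25 ± 0.28 (adjusted p = 0.016; 0.053 with the replicate number within each age as a block). The positive interaction of XPC, a nucleotide excision repair factor, at 0.39 ± 0.11 (adjusted p = 0.043) was lost without any of 11 of the 12 libraries, all but WIK_24hpf replicate 3, at an adjusted p of up to 0.10. Age is given by the labels in hours post fertilisation, and the time of day and the lighting at collection are absent from these labels.

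Glucocorticoid-responsive genes, several of which also belong to the lists above and below, had 5 positive and 1 negative interaction among 21 tested (28.6%), all called at 72 hpf and not at 24 hpf, with a median of 0.17. FKBP5, a co-chaperone of steroid receptors that glucocorticoids induce, had 166, 165 and 177 CPM in KO-labelled and 69.9, 72.3 and 78.5 CPM in WIK libraries at 72 hpf, and 3.8 to 5.3 CPM in KO-labelled and 2.89 to 4.7 CPM in WIK libraries at 24 hpf. Its interaction was 0.99 ± 0.22 (adjusted p = 0.014). The called interactions of KLF9 and TXNIP (ENSDARG00000070000), at 1.25 ± 0.31 and -0.79 ± 0.21, were lost without any of 8 and of 11 of the 12 libraries (adjusted p up to 0.076 and 0.11). The exceptions were WIK_72hpf replicate 2, her3_KO_24hpf replicate 1 and WIK_24hpf replicates 1 and 2 for KLF9, and WIK_24hpf replicate 3 for TXNIP. Fewer members were called without each single library. The number was 3 without any 1 of her3_KO_72hpf replicates 2 and 3, WIK_72hpf replicates 1 and 3 and her3_KO_24hpf replicates 2 and 3. It was 4 without any 1 of her3_KO_72hpf replicate 1, WIK_72hpf replicate 2, her3_KO_24hpf replicate 1 and WIK_24hpf replicate 3. It was 5, all positive, without WIK_24hpf replicate 1 or 2.

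Immediate-early genes, which are transcribed within minutes of a stimulus, differed in opposite ways at the 2 ages. Of 40 tested members 18 had a positive interaction and 0 a negative one (45%), with a median of 0.87. At 72 hpf 20 of the 40 were higher and 0 lower in KO-labelled embryos, and at 24 hpf 0 were higher and 10 lower. Of the 18 members, 10 were called at 72 hpf only, 3 at 24 hpf only and 5 at both ages in opposite directions. The summed level of the 40 genes was 1394, 1419 and 1440.0 CPM in KO-labelled and 1077, 1053 and 1059 CPM in WIK libraries at 72 hpf. The sum at 24 hpf was 1236, 1256 and 1222 CPM in KO-labelled libraries and 1714, 1240.0 and 1583 CPM in WIK replicates 1, 2 and 3. The WIK libraries at 24 hpf were thus split: replicate 2 lay within the KO-labelled range and replicates 1 and 3 above it. In embryos injected with the mismatch morpholino, WIK embryos of the same age, the sum was 1032, 1066 and 1163 CPM, below each uninjected WIK library. Without WIK_24hpf replicate 1 or replicate 3, 17 members had a positive interaction, and without replicate 2 it was 24. Without any 1 of the other 9 libraries it was 13 to 16. The standard errors were pooled over all 6 groups, so they do not measure this split in WIK at 24 hpf. The part of this split in the interactions was not tested beyond these values.

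FOS, a subunit of the AP-1 transcription factor, had 37.6, 39.2 and 51.6 CPM in KO-labelled and 7.03, 6.7 and 7.17 CPM in WIK libraries at 72 hpf. At 24 hpf it had 16.8, 20.5 and 16.2 CPM in KO-labelled and 58, 12.9 and 45.6 CPM in WIK libraries. The groups were far apart at 72 hpf and overlapped at 24 hpf, where WIK replicate 2 was the lowest of the 6 libraries. The difference was 2.52 ± 0.37 (adjusted p = 0.0002) at 72 hpf, -0.86 ± 0.37 (adjusted p = 0.14) at 24 hpf, and the interaction 3.38 ± 0.52 (adjusted p = 0.0012). FOSB, a second AP-1 subunit, had 1.07, 1.67 and 2.15 CPM in KO-labelled and 0.244, 0.159 and 0.457 CPM in WIK libraries at 72 hpf. FOSB at 24 hpf had 0.40, 0.482 and 0.514 CPM in KO-labelled and 1.1, 1.32 and 3.07 CPM in WIK libraries. Here the groups did not overlap at either age, and the order of KO-labelled and WIK was reversed between them (interaction 2.6 ± 0.35, adjusted p = 0.00038). JUND, another AP-1 gene, showed the same reversal: 33.5, 35.1 and 38.2 CPM in KO-labelled and 23.4, 23.7 and 22.4 CPM in WIK libraries at 72 hpf. JUND levels at 24 hpf were 8.9, 9.95 and 8.31 CPM in KO-labelled and 19.6, 12.1 and 13.8 CPM in WIK libraries (interaction 1.29 ± 0.19, adjusted p = 0.0009). fosaa and ier2b were also called in opposite directions, with interactions of 2.4 ± 0.36 and 1.51 ± 0.23 (adjusted p = 0.0011 and 0.00093). DUSP1, a phosphatase that switches off MAP kinases, had 105, 106 and 113 CPM in KO-labelled and 52.2, 53.3 and 51 CPM in WIK libraries at 72 hpf. At 24 hpf its 6 libraries lay between 113 and 134 CPM, so that WIK at 72 hpf was the group that stood apart (interaction 1.16 ± 0.10, adjusted p = 4.5e-06).

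Inflammation genes were mostly higher at 72 hpf where called and lower at 24 hpf. Of 23 tested members 8 were higher and 3 lower with the KO label at 72 hpf, and 0 were higher and 7 lower at 24 hpf. The interaction was positive for 8 and negative for 1 (39.1%), with a median of 0.57, and the summed level of the 23 genes was 623, 612 and 581 CPM in KO-labelled and 345, 390.0 and 364.5 CPM in WIK libraries at 72 hpf. At 24 hpf the sum was 292, 295 and 278 CPM in KO-labelled libraries, against 551, 309 and 626 CPM in WIK replicates 1, 2 and 3 and 255, 267 and 323 CPM with the mismatch morpholino. WIK replicate 2 at 24 hpf thus lay above all 3 KO-labelled libraries and below the other WIK libraries. PTGS2 (ENSDARG00000010276), an inducible prostaglandin synthase, had 34.2, 32.7 and 34 CPM in KO-labelled and 8.78, 10.4 and 10.4 CPM in WIK libraries at 72 hpf. At 24 hpf it had 5.4, 4.5 and 3.69 CPM in KO-labelled and 44.3, 13.9 and 59.7 CPM in WIK libraries, and 3.71, 3.5 and 3.97 CPM with the mismatch morpholino. Its groups did not overlap at either age, which the naming rule required, and lay in opposite order. The interaction of 4.49 ± 0.48 (adjusted p = 5.1e-05) was the most positive of the genes named. The second PTGS2 gene (ENSDARG00000004539) was called in opposite directions as well, by 0.57 ± 0.15 at 72 hpf and -0.58 ± 0.15 at 24 hpf (interaction 1.15 ± 0.21, adjusted p = 0.0045).

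CEBPB and CEBPD encode transcription factors of the acute-phase response. CEBPB had 54, 52.2 and 50.5 CPM in KO-labelled and 25.2, 29.9 and 25.8 CPM in WIK libraries at 72 hpf. CEBPB at 24 hpf had 58.4, 59.6 and 55.2 CPM in KO-labelled and 121, 67.3 and 113 CPM in WIK libraries, in opposite order at the 2 ages (interaction 1.69 ± 0.26, adjusted p = 0.0013). CEBPD gave 1.41 ± 0.22 (adjusted p = 0.0014). SOCS3 (ENSDARG00000025428), an inhibitor of cytokine signalling, had 41.9, 43.6 and 51.8 CPM in KO-labelled and 11, 13.3 and 9.3 CPM in WIK libraries at 72 hpf. SOCS3 levels at 24 hpf were 4.95, 6.53 and 5.0 CPM in KO-labelled and 12, 4.28 and 14.4 CPM in WIK libraries. It was called at 72 hpf only, and the interaction was 2.68 ± 0.43 (adjusted p = 0.0017). nfkbiab, an inhibitor of NF-kappaB, had an interaction of 0.61 ± 0.11 (adjusted p = 0.0052). The negative interaction belonged to hamp, the iron hormone hepcidin, named here after its values were seen: it averaged 1.31 ± 0.0924 CPM in KO-labelled and 5.97 ± 0.749 CPM in WIK libraries at 72 hpf and 0.0656 ± 0.0241 CPM in KO-labelled and 0.375 ± 0.191 CPM in WIK libraries at 24 hpf (SD, n = 3 each), lower with the KO label at both ages (interaction -1.22 ± 0.25, adjusted p = 0.0091). Its mean level in both groups at 24 hpf lay below the pseudocount of 0.5, and with a pseudocount of 0.1 or with voom weights 0 inflammation genes had a called negative interaction. The cytokine genes il1b and tnfb were low at both ages and did not pass, with interactions of 0.57 ± 0.42 and -0.37 ± 0.55 (adjusted p = 0.46 and 0.72).

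**Figure D3:**
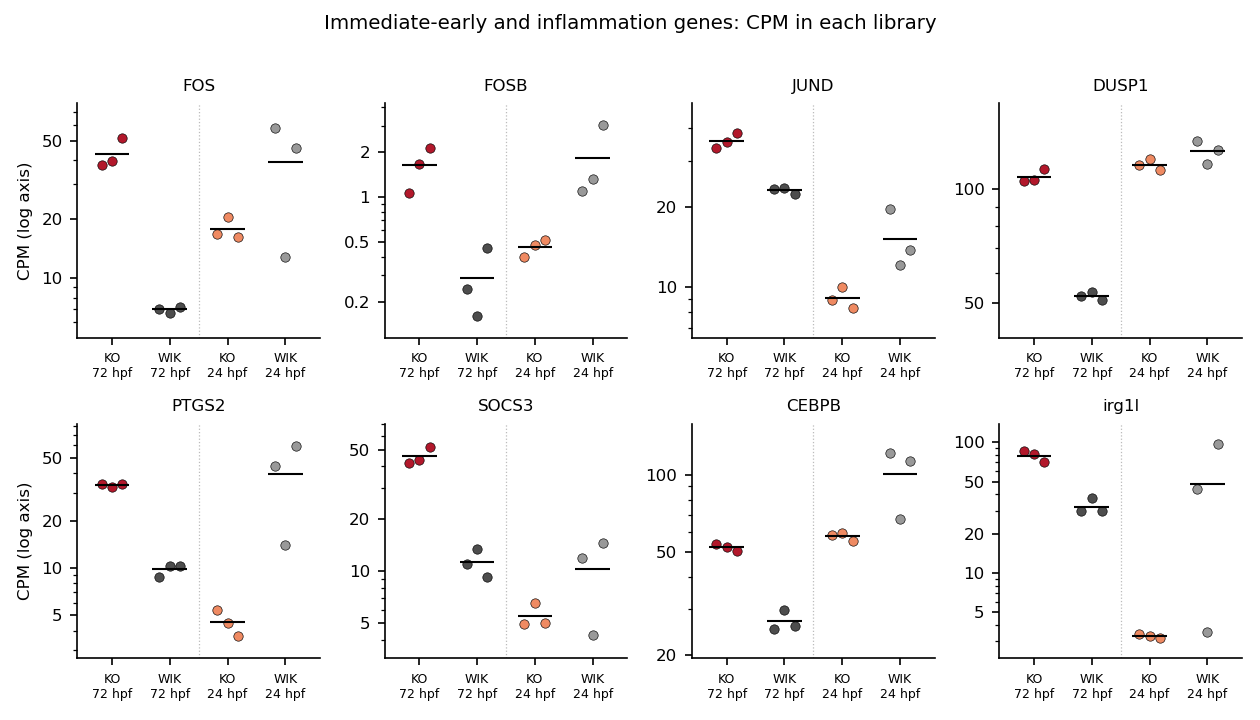
CPM of 8 immediate-early and inflammation genes in each library on log axes, ordered as KO-labelled and WIK at 72 hpf, then KO-labelled and WIK at 24 hpf; points are replicates 1, 2 and 3 from left to right within a group and bars are group means. KO-labelled libraries lie above WIK at 72 hpf, and at 24 hpf WIK replicate 2 is the lowest of the 3 WIK libraries in each panel but that of FOSB.

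Exocrine pancreas genes were lower with the KO label at 72 hpf. Of 17 tested members 8 had a negative interaction and 0 a positive one (47.1%), with a median of -1.06. At 72 hpf 14 of the 17 were lower in KO-labelled embryos, against 5.71% of all genes. Only 4 of the 17 averaged 1 CPM or more at both ages. prss59.2, a trypsin gene, had 7.68, 10.4 and 7.05 CPM in KO-labelled and 22, 40.6 and 36.9 CPM in WIK libraries at 72 hpf, and at most 0.358 CPM in any of the 6 libraries at 24 hpf (interaction -1.94 ± 0.30, adjusted p = 0.0013). prss59.1, a near copy whose reads may not be told apart from it, had 1.74, 2.01 and 1.14 CPM in KO-labelled and 3.81, 12.3 and 11.1 CPM in WIK libraries at 72 hpf (interaction -2.12 ± 0.42, adjusted p = 0.0076). CELA1, an elastase, is a member with a measurable level at both ages: 4.14, 4.5 and 4.16 CPM in KO-labelled and 9.52, 15.09 and 15.7 CPM in WIK libraries at 72 hpf. CELA1 at 24 hpf had 2.7, 2.68 and 2.29 CPM in KO-labelled and 2.97, 1.48 and 0.921 CPM in WIK libraries. The groups did not overlap at 72 hpf, which the naming rule required, and overlapped at 24 hpf. The interaction was -2.03 ± 0.38 (adjusted p = 0.0058). pdia2, a protein disulphide isomerase of pancreatic acinar cells, had 1.48, 2.1 and 1.88 CPM in KO-labelled and 4.29, 5.26 and 5.23 CPM in WIK libraries at 72 hpf, against 1.17 to 1.55 CPM in KO-labelled and 1.27 to 1.58 CPM in WIK libraries at 24 hpf (interaction -1.25 ± 0.21, adjusted p = 0.0026). ctrb.3, a chymotrypsinogen, had an interaction of -1.81 ± 0.34 (adjusted p = 0.006) and 0 reads in all 6 libraries at 24 hpf. PTF1A, the transcription factor that specifies the exocrine pancreas, had 3.68 CPM in KO-labelled and 3.46 CPM in WIK libraries at 72 hpf and 3.98 CPM in KO-labelled and 4.87 CPM in WIK libraries at 24 hpf, and did not pass (interaction 0.32 ± 0.25, adjusted p = 0.48). With voom weights on the recovered reads 2 of the 17 members were called, and prss59.1, prss59.2 and ctrb.3 were not among them (adjusted p = 0.30, 0.25 and 0.35). In whole-embryo RNA fewer cells of a type and less RNA per cell cannot be told apart. Liver plasma proteins, from the neighbouring organ, had 0 called interactions of 41, and at most 1 without any single library. The intestine list had 1 of 19, and 0 to 2 without single libraries.

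Among neural genes the interaction was called in both directions. Of 28 tested proneural factors 4 had a positive and 2 a negative interaction (21.4%). The 2 negative ones were neurog1, the gene her3 is known to repress, and ascl1b, a second helix-loop-helix activator of neurogenesis. neurog1 had 7.47, 7.94 and 6.27 CPM in KO-labelled and 15.3, 11.7 and 12 CPM in WIK libraries at 72 hpf. neurog1 levels at 24 hpf were 49.4, 49 and 46.6 CPM in KO-labelled and 55.6, 36.8 and 42 CPM in WIK libraries. It was lower with the KO label at 72 hpf, without overlap, and the groups overlapped at 24 hpf (interaction -0.93 ± 0.21, adjusted p = 0.018). ascl1b had 19.6, 18.1 and 17.5 CPM in KO-labelled and 34.3, 29.9 and 30.9 CPM in WIK libraries at 72 hpf. ascl1b at 24 hpf had 42.9, 45.4 and 41.5 CPM in KO-labelled and 42.1, 36.7 and 40.3 CPM in WIK libraries (interaction -0.89 ± 0.13, adjusted p = 0.0008). Among 53 tested neural progenitor genes 4 had a positive and 1 a negative interaction (9.43%), and 2 were positive without WIK_72hpf replicate 3 or with the replicate block within age. The negative one, SOX9 (ENSDARG00000043923), a factor of glia and cartilage, was lower at 72 hpf only (interaction -0.54 ± 0.11, adjusted p = 0.011). The early neuronal factor EBF2 was called in opposite directions, by 0.32 ± 0.10 at 72 hpf and -0.38 ± 0.10 at 24 hpf. PAX2 (ENSDARG00000028148), a factor of the midbrain-hindbrain boundary, kidney and eye stalk, was higher at 72 hpf only, at 74.2 ± 4.91 CPM in KO-labelled and 53.9 ± 3.48 CPM in WIK libraries (SD, n = 3 each; interaction 0.62 ± 0.11, adjusted p = 0.0034).

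Genes of differentiated neurons and retina were called in both directions at 24 hpf. Of 62 tested synaptic genes 3 were lower and 1 higher with the KO label at that age, and the interaction was called for 2 (3.23%, against 4.64% of all genes), both positive. Of 50 tested opsin and phototransduction genes 5 were lower and 3 higher at 24 hpf, and 2 had a positive and 3 a negative interaction (10%). Only 1 opsin-list gene was negative without any 1 of her3_KO_24hpf replicate 3, WIK_72hpf replicates 2 and 3 and her3_KO_72hpf replicate 1. NEUROD6 (ENSDARG00000020794), a neuronal differentiation factor, had 86.2, 86.5 and 88.4 CPM in KO-labelled and 71.4, 65 and 71.8 CPM in WIK libraries at 72 hpf. At 24 hpf it had 2.85, 4.17 and 2.94 CPM in KO-labelled and 10.2, 7.82 and 7.93 CPM in WIK libraries, without overlap. The difference was 0.33 ± 0.14 (adjusted p = 0.17) at 72 hpf and -1.27 ± 0.14 (adjusted p = 1.5e-05) at 24 hpf, and the interaction was 1.59 ± 0.20 (adjusted p = 0.0002). nefmb and nefla, the 2 called synaptic-list members, encode neurofilament subunits of axons. nefmb had 135, 119.9 and 120.3 CPM in KO-labelled and 117, 106 and 110.1 CPM in WIK libraries at 72 hpf. nefmb levels at 24 hpf were 38.8, 41.7 and 39.8 CPM in KO-labelled and 91.3, 88 and 69.7 CPM in WIK libraries (interaction 1.2 ± 0.14, adjusted p = 0.00014), and nefla had an interaction of 1.25 ± 0.27 (adjusted p = 0.014). With the mismatch morpholino nefmb had 33.6, 40.2 and 43.7 CPM, near the KO-labelled libraries. NEUROD6 and nefla averaged 7.85 and 1.66 CPM with it, near the uninjected WIK means of 8.65 and 1.82 CPM. FABP7 (ENSDARG00000034650), a fatty acid binding protein of radial glia, gave 1.21 ± 0.25 (adjusted p = 0.0099). At 24 hpf it averaged 0.632 CPM in KO-labelled and 2.21 CPM in WIK libraries, and 0.519 CPM with the mismatch morpholino. Among the opsin-list genes, rlbp1a, a retinal carrier protein of the visual cycle, and pde6ha, a cone phosphodiesterase subunit, had positive interactions of 1.0 ± 0.21 and 1.34 ± 0.30 (adjusted p = 0.0097 and 0.015). PDE6B (ENSDARG00000011671), a rod phosphodiesterase subunit, went the other way: 10.3, 13.2 and 15.8 CPM in KO-labelled and 12.2, 18.2 and 16.5 CPM in WIK libraries at 72 hpf. PDE6B at 24 hpf had 4.7, 6.42 and 6.16 CPM in KO-labelled and 1.78, 2.43 and 2.2 CPM in WIK libraries (interaction -1.49 ± 0.27, adjusted p = 0.004).

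The lens list shows the difference between a call at 1 age and a called interaction. At 24 hpf 23 of 55 tested lens genes were lower in KO-labelled embryos (6.63% of all genes were) and 0 higher, and at 72 hpf 3 were lower and 0 higher. The interaction was nevertheless called for only 2 of the 55 (3.64%, against 4.64% of all genes), although the median was 0.47. Levels reached 1 CPM at both ages for 28 of the 55. MIP (ENSDARG00000013963), a water channel of lens fibre cells, had 105, 97.7 and 88.1 CPM in KO-labelled and 93.2, 99 and 81.3 CPM in WIK libraries at 72 hpf. MIP levels at 24 hpf were 1.00, 1.82 and 1.17 CPM in KO-labelled and 3.65, 3.7 and 2.66 CPM in WIK libraries. Its groups overlapped at 72 hpf and did not at 24 hpf, and the interaction was 1.17 ± 0.25 (adjusted p = 0.012). The call for LIM2 (ENSDARG00000015445), a lens fibre membrane protein, at 1.08 ± 0.26 (adjusted p = 0.024) was lost without her3_KO_72hpf replicate 1 or 2, WIK_72hpf replicate 1 or 3, or her3_KO_24hpf replicate 1 (adjusted p up to 0.074), and without her3_KO_24hpf replicate 2 the number of lens genes with a called interaction was 7.

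Pigment cell genes had 7 positive and 1 negative interaction among 39 tested (20.5%), with a median of 0.20. pnp4a, a purine metabolism gene of iridophores, had 101, 96.8 and 84.7 CPM in KO-labelled and 70.0, 77 and 70.7 CPM in WIK libraries at 72 hpf. pnp4a at 24 hpf had 9.05, 13.8 and 11.3 CPM in KO-labelled and 26.7, 20.5 and 18 CPM in WIK libraries. Its difference was called at 24 hpf only, -0.90 ± 0.16, and the interaction was 1.28 ± 0.22 (adjusted p = 0.0034). TYRP1 (ENSDARG00000056151), an enzyme of melanin synthesis, had 621, 613 and 605 CPM in KO-labelled and 564, 577 and 569.7 CPM in WIK libraries at 72 hpf. TYRP1 levels at 24 hpf were 63.4, 76.4 and 66.6 CPM in KO-labelled and 104, 108 and 101 CPM in WIK libraries (interaction 0.71 ± 0.11, adjusted p = 0.0016). TFAP2E, a transcription factor of melanophores and iridophores, was called in opposite directions (interaction 0.86 ± 0.17, adjusted p = 0.0089), and gch2, a pteridine enzyme of xanthophores, at 72 hpf only (interaction 0.67 ± 0.13, adjusted p = 0.0056). crestin, a marker of neural crest cells, was higher at both ages: 6.04, 5.6 and 4.53 CPM in KO-labelled and 0.927, 0.903 and 0.966 CPM in WIK libraries at 72 hpf. crestin at 24 hpf had 18.8, 20.4 and 21.6 CPM in KO-labelled and 11.4, 9.45 and 11 CPM in WIK libraries. On this scale the difference was larger at 72 hpf, by 1.13 ± 0.20 (adjusted p = 0.0043), which was lost with a pseudocount of 2 (adjusted p = 0.10). The negative member was trpm1b, a cation channel of melanophores, with 62, 57.8 and 64.2 CPM in KO-labelled and 113, 115 and 90.3 CPM in WIK libraries at 72 hpf (interaction -0.89 ± 0.15, adjusted p = 0.0034).

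Presomitic mesoderm genes are expressed in the tail tissue from which the somites form. At 24 hpf 10 of 27 tested members were higher with the KO label (6.01% of all genes were) and 0 lower, and at 72 hpf 1 was higher and 0 lower. Of the 27, 6 had a negative interaction and 0 a positive one (22.2%, against 4.64% of all genes), between -1.26 and -0.82. Levels reached 1 CPM at both ages for 17 of the 27. The called members her7, mespab and mespbb averaged 0.167, 0.0173 and 0.0426 CPM at 72 hpf, too low to measure a difference at that age. mespab and mespbb passed the filter on low values only through the KO-labelled libraries at 24 hpf, where they were highest. Their calls are therefore not independent of that filter. msgn1, a helix-loop-helix factor of the presomitic mesoderm, had 0.665, 0.765 and 0.824 CPM in KO-labelled and 0.781, 0.957 and 0.813 CPM in WIK libraries at 72 hpf. msgn1 levels at 24 hpf were 25.1, 17.7 and 15 CPM in KO-labelled and 12.1, 9.08 and 9.41 CPM in WIK libraries (interaction -0.97 ± 0.23, adjusted p = 0.024). her7, a segmentation clock repressor of the same family as her3, had 0.0512, 0.0478 and 0.183 CPM in KO-labelled and 0.146, 0.319 and 0.254 CPM in WIK libraries at 72 hpf. her7 at 24 hpf had 4.2, 2.57 and 2.8 CPM in KO-labelled and 1.19, 1.74 and 1.28 CPM in WIK libraries (interaction -1.26 ± 0.28, adjusted p = 0.018). pcdh8, a protocadherin, had 21.8, 24.5 and 24.3 CPM in KO-labelled and 32.4, 29.4 and 22.9 CPM in WIK libraries at 72 hpf. pcdh8 levels at 24 hpf were 22.8, 20.0 and 17.2 CPM in KO-labelled and 10.1, 10.6 and 12.1 CPM in WIK libraries (interaction -1.08 ± 0.26, adjusted p = 0.024). These calls rest on single libraries: 0 members were called without her3_KO_24hpf replicate 1 or without WIK_72hpf replicate 2, 3 without her3_KO_72hpf replicate 1 or 2, 4 without WIK_72hpf replicate 3, 3 without the 2 libraries that stood apart, and 1 with voom weights. MYF5, a myogenic factor of somite muscle, kept its call in all 28 alternative settings, with 5.83, 5.5 and 5.45 CPM in KO-labelled and 6.39, 7.49 and 6.45 CPM in WIK libraries at 72 hpf. MYF5 at 24 hpf had 17.7, 16.5 and 14.9 CPM in KO-labelled and 8.66, 11.9 and 8.9 CPM in WIK libraries (interaction -0.98 ± 0.19, adjusted p = 0.007).

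**Figure D4:**
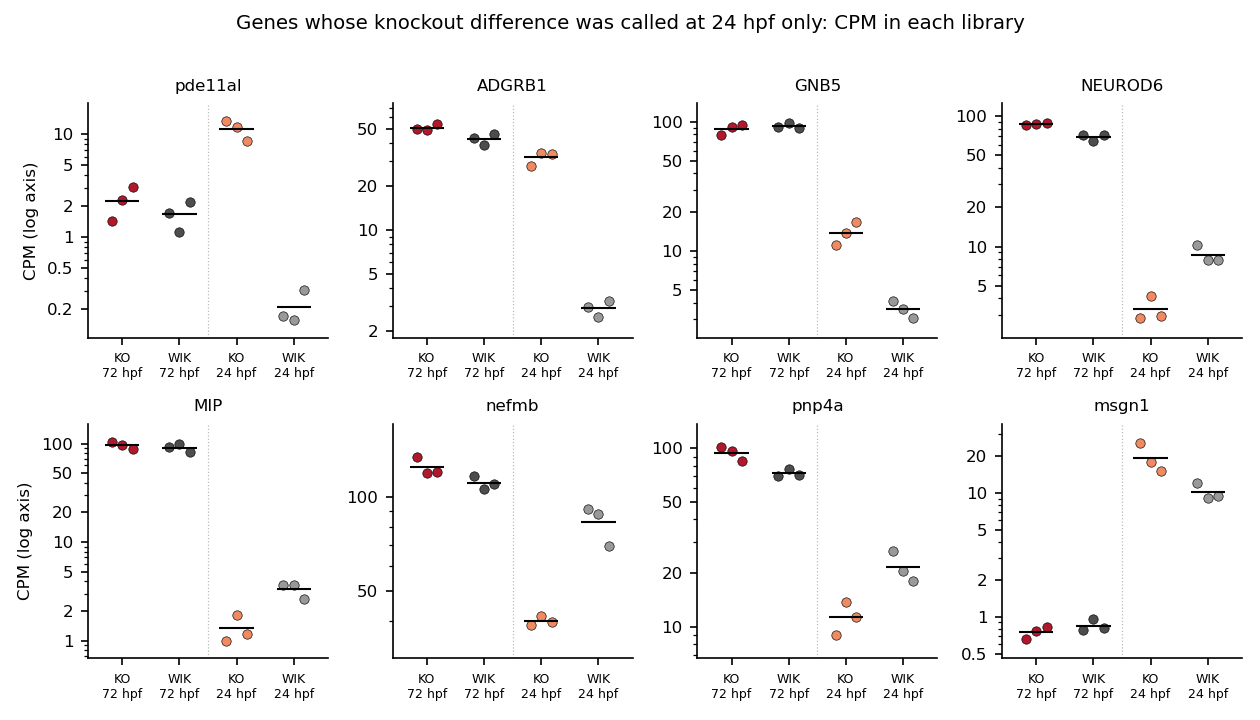
CPM of 8 genes whose difference between KO-labelled and WIK libraries was called at 24 hpf only, on log axes, with KO-labelled left of WIK and 72 hpf left of 24 hpf; points are libraries and bars group means. At 24 hpf the 2 groups do not overlap in any panel, with KO-labelled libraries higher for pde11al, ADGRB1, GNB5 and msgn1 and lower for NEUROD6, MIP, nefmb and pnp4a. The naming rule required no overlap for pde11al, ADGRB1 and GNB5.

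Among the genes named, pde11al had the most negative interaction, and its difference was called at 24 hpf only. pde11al, of the cyclic nucleotide phosphodiesterase family, had 1.43, 2.3 and 3.07 CPM in KO-labelled and 1.71, 1.12 and 2.19 CPM in WIK libraries at 72 hpf. At 24 hpf pde11al had 13.3, 11.8 and 8.5 CPM in KO-labelled and 0.17, 0.158 and 0.307 CPM in WIK libraries. At 24 hpf all 3 KO-labelled libraries were far above WIK, at 72 hpf the groups overlapped, and the interaction was -3.69 ± 0.33 (adjusted p = 8e-06). ADGRB1 (ENSDARG00000078529), an adhesion G protein-coupled receptor of the brain, had 49.4, 48.7 and 53.7 CPM in KO-labelled and 43.2, 38.6 and 46.1 CPM in WIK libraries at 72 hpf. ADGRB1 levels at 24 hpf were 27.6, 34.1 and 33.6 CPM in KO-labelled and 2.97, 2.54 and 3.22 CPM in WIK libraries. WIK at 24 hpf was the group that stood apart, far below the other 9 libraries (interaction -2.99 ± 0.21, adjusted p = 3.8e-07). GNB5 (ENSDARG00000055377), a neuronal G protein beta subunit, had 79.4, 91.7 and 94.7 CPM in KO-labelled and 90.7, 97.9 and 89.3 CPM in WIK libraries at 72 hpf. GNB5 at 24 hpf had 11.1, 13.8 and 16.9 CPM in KO-labelled and 4.16, 3.59 and 3.07 CPM in WIK libraries (interaction -1.87 ± 0.25, adjusted p = 0.00038). With the mismatch morpholino pde11al, ADGRB1 and GNB5 averaged 2.56, 8.33 and 4.94 CPM. These lay above the uninjected WIK means of 0.212, 2.91 and 3.61 CPM and below the KO-labelled means of 11.2, 31.8 and 14 CPM at 24 hpf. The naming rule also took CDH15, the muscle adhesion molecule M-cadherin, and NR2C1, an orphan nuclear receptor, at -2.34 ± 0.60 and -1.99 ± 0.48. Both calls were lost without any of 8 of the 12 libraries (adjusted p up to 0.095 and 0.068): for both these were WIK_72hpf replicates 1 and 2, her3_KO_72hpf replicate 2 and the 3 her3_KO_24hpf libraries, with WIK_24hpf replicate 1 and WIK_72hpf replicate 3 for CDH15 and her3_KO_72hpf replicates 1 and 3 for NR2C1.

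On the positive side of the same class were genes lower with the KO label at 24 hpf. SMIM19, which encodes a small membrane protein, had 1.48, 1.0 and 0.32 CPM in KO-labelled and 0.83, 1.54 and 1.12 CPM in WIK libraries at 72 hpf. SMIM19 levels at 24 hpf were 0.15, 0.214 and 0.514 CPM in KO-labelled and 4.42, 2.69 and 3.79 CPM in WIK libraries. The interaction was 2.11 ± 0.43 (adjusted p = 0.01). CCZ1, a subunit of the complex that activates the endosomal GTPase RAB7, gave 3.0 ± 0.67 (adjusted p = 0.017), with an adjusted p of 0.051 without WIK_72hpf replicate 3. irg1l, an infection-induced gene of skin and macrophages in zebrafish, had 85, 81.4 and 70.34 CPM in KO-labelled and 29.6, 37.3 and 29.7 CPM in WIK libraries at 72 hpf. irg1l at 24 hpf had 3.45, 3.32 and 3.17 CPM in KO-labelled and 44, 3.54 and 97.1 CPM in WIK libraries. At 24 hpf WIK replicate 2 lay beside the KO-labelled libraries and replicates 1 and 3 far above them. Its interaction of 4.05 ± 1.00 (adjusted p = 0.029) and that of FOSL1, an AP-1 subunit, at 2.25 ± 0.59 (adjusted p = 0.041), were each lost without any of 10 of the 12 libraries (adjusted p up to 0.081 and 0.11). The 2 libraries whose removal kept the call were WIK_24hpf replicates 2 and 3 for irg1l, and WIK_24hpf replicate 2 and her3_KO_72hpf replicate 2 for FOSL1. apcs, a pentraxin of innate immunity, at 2.16 ± 0.50 (adjusted p = 0.021) lost its call without her3_KO_72hpf replicate 1 or 2, WIK_72hpf replicate 1 or her3_KO_24hpf replicate 1 (adjusted p up to 0.061). With the mismatch morpholino apcs, irg1l and FOSL1 averaged 1.26, 2.53 and 4.09 CPM, nearer to the KO-labelled than to the WIK means at 24 hpf. SMIM19 and CCZ1 averaged 3.05 and 13.5 CPM with it, nearer to the WIK means.

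Of the named genes called at 72 hpf only and held by no list, DHRS13 (ENSDARG00000111240), a gene of the short-chain dehydrogenase family, had the most positive interaction. It had 125, 116 and 114 CPM in KO-labelled and 24.9, 28.6 and 28.1 CPM in WIK libraries at 72 hpf. DHRS13 levels at 24 hpf were 22.4, 22.1 and 22 CPM in KO-labelled and 46.2, 20.3 and 50.3 CPM in WIK libraries. WIK replicate 2 was again the low library at 24 hpf (interaction 2.8 ± 0.34, adjusted p = 0.00017). dnaaf19, an assembly factor of cilium dynein arms, had 3.84, 3.44 and 2.61 CPM in KO-labelled and 13.4, 11.6 and 8.23 CPM in WIK libraries at 72 hpf. dnaaf19 at 24 hpf had 5.75, 4.55 and 6.54 CPM in KO-labelled and 3.23, 4.28 and 3.43 CPM in WIK libraries, an interaction of -2.15 ± 0.27 (adjusted p = 0.00018). arhgef3l, of a guanine nucleotide exchange factor family, had 2.1, 1.96 and 2.56 CPM in KO-labelled and 9.42, 7.92 and 6.1 CPM in WIK libraries at 72 hpf, and its 6 libraries at 24 hpf lay between 1.53 and 2.71 CPM (interaction -1.51 ± 0.31, adjusted p = 0.0091). sowahd, an ankyrin repeat gene, gave -1.56 ± 0.30 (adjusted p = 0.0064). kcp, a relative of the BMP regulator chordin, gave -1.49 ± 0.35 (adjusted p = 0.022), a call that was lost without any of 6 libraries, namely her3_KO_72hpf replicates 2 and 3, WIK_72hpf replicates 1 and 2 and her3_KO_24hpf replicates 1 and 3 (adjusted p up to 0.064).

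Of the 69 genes called in opposite directions 48 were higher at 72 hpf and lower at 24 hpf, and 21 the reverse. FOXQ1, a forkhead transcription factor, had 28, 26.5 and 30.9 CPM in KO-labelled and 11.7, 11.2 and 10.9 CPM in WIK libraries at 72 hpf. FOXQ1 levels at 24 hpf were 2.2, 1.82 and 1.68 CPM in KO-labelled and 9.59, 4.65 and 6.45 CPM in WIK libraries. Embryos injected with the mismatch morpholino had 3.22, 3.75 and 3.87 CPM. The KO-labelled and WIK groups did not overlap at either age, which the naming rule required, and the interaction was 2.88 ± 0.27 (adjusted p = 1.2e-05). krt99, a keratin, had the reverse order: 2.92, 3.59 and 3.71 CPM in KO-labelled and 8.54, 7.86 and 10.9 CPM in WIK libraries at 72 hpf. krt99 at 24 hpf had 182, 122 and 142 CPM in KO-labelled and 97, 73.9 and 65.4 CPM in WIK libraries (interaction -2.2 ± 0.31, adjusted p = 0.00065). rabgap1l2, of a family of Rab GTPase-activating proteins, had 16.6, 13.3 and 11.7 CPM in KO-labelled and 21.4, 20.9 and 21.4 CPM in WIK libraries at 72 hpf. rabgap1l2 levels at 24 hpf were 40.2, 36 and 38.6 CPM in KO-labelled and 21.1, 19.9 and 18.6 CPM in WIK libraries (interaction -1.54 ± 0.19, adjusted p = 0.00023). cxcl12b, a chemokine that guides migrating cells and vessels, had 14.9, 11.3 and 18.3 CPM in KO-labelled and 26.7, 27.2 and 28.1 CPM in WIK libraries at 72 hpf. cxcl12b at 24 hpf had 83, 95.4 and 99.1 CPM in KO-labelled and 67.4, 61.1 and 56.7 CPM in WIK libraries (interaction -1.46 ± 0.19, adjusted p = 0.0003).

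For 62 genes the difference had the same sign at both ages and another size. nebl, an actin-binding nebulin relative, had 6.4, 5.07 and 6.18 CPM in KO-labelled and 2.88, 2.44 and 3.05 CPM in WIK libraries at 72 hpf. nebl levels at 24 hpf were 10.1, 8.88 and 9.57 CPM in KO-labelled and 0.764, 0.581 and 0.46 CPM in WIK libraries. It was higher at both ages, by 0.95 ± 0.14 at 72 hpf and 3.19 ± 0.14 at 24 hpf, and the interaction was -2.24 ± 0.20 (adjusted p = 5.6e-06). alox5b.3, a lipoxygenase gene, had 3.58, 3.01 and 4.67 CPM in KO-labelled and 1.27, 0.903 and 1.12 CPM in WIK libraries at 72 hpf. alox5b.3 at 24 hpf had 9.65, 10.6 and 9.29 CPM in KO-labelled and 0.764, 0.423 and 0.921 CPM in WIK libraries (interaction -1.72 ± 0.26, adjusted p = 0.00092). SPPL2B, an intramembrane protease, had 51.8, 48.6 and 47.7 CPM in KO-labelled and 26.2, 25.3 and 31 CPM in WIK libraries at 72 hpf. SPPL2B levels at 24 hpf were 33.1, 37.2 and 31 CPM in KO-labelled and 9.85, 5.18 and 6.75 CPM in WIK libraries (interaction -1.35 ± 0.27, adjusted p = 0.0091). MMP14 (ENSDARG00000008388), a membrane-bound collagenase, likewise had the larger difference at 24 hpf, with 0.68 ± 0.13 at 72 hpf and 1.79 ± 0.13 at 24 hpf (interaction -1.1 ± 0.18, adjusted p = 0.0024). CSRP1 (ENSDARG00000030980), a LIM-domain protein, was lower at both ages and more so at 24 hpf: 1.59, 2.06 and 1.88 CPM in KO-labelled and 2.44, 4.57 and 6.05 CPM in WIK libraries at 72 hpf. CSRP1 at 24 hpf had 0.70, 0.482 and 0.70 CPM in KO-labelled and 13.5, 6.13 and 9.26 CPM in WIK libraries (interaction 2.13 ± 0.40, adjusted p = 0.0057). fthl29, a ferritin heavy chain-like gene, gave 1.43 ± 0.36 (adjusted p = 0.03), which was lost without any of 8 libraries, namely all but her3_KO_72hpf replicate 3, her3_KO_24hpf replicate 2 and WIK_24hpf replicates 2 and 3 (adjusted p up to 0.084).

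RHCG, plekhs1.1, isg15 and mhc2dgb averaged below 1 CPM at 1 age. RHCG (ENSDARG00000003203), an ammonia channel of ionocytes, had 132, 132 and 141 CPM in KO-labelled and 19.7, 33.2 and 24.1 CPM in WIK libraries at 72 hpf, and at most 0.425 CPM at 24 hpf (interaction 2.61 ± 0.28, adjusted p = 5.4e-05). plekhs1.1, a pleckstrin homology domain gene, had 31.8, 31.1 and 29 CPM in KO-labelled and 5.61, 11.1 and 2.39 CPM in WIK libraries at 72 hpf, and at most 0.594 CPM at 24 hpf (interaction 2.63 ± 0.48, adjusted p = 0.0045, and 0.13 with voom). isg15, an interferon-induced ubiquitin-like modifier, was lower at 72 hpf, at 0.819, 0.622 and 0.412 CPM in KO-labelled and 3.42, 1.43 and 3.51 CPM in WIK libraries (interaction -1.93 ± 0.38, adjusted p = 0.0083). mhc2dgb, a class II histocompatibility gene, had at most 0.203 CPM at 72 hpf, and 2.4, 2.09 and 1.73 CPM in KO-labelled and 19.4, 28.3 and 26.6 CPM in WIK libraries at 24 hpf (interaction 2.99 ± 0.32, adjusted p = 5.1e-05, and 0.52 with voom).

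**Figure D5:**
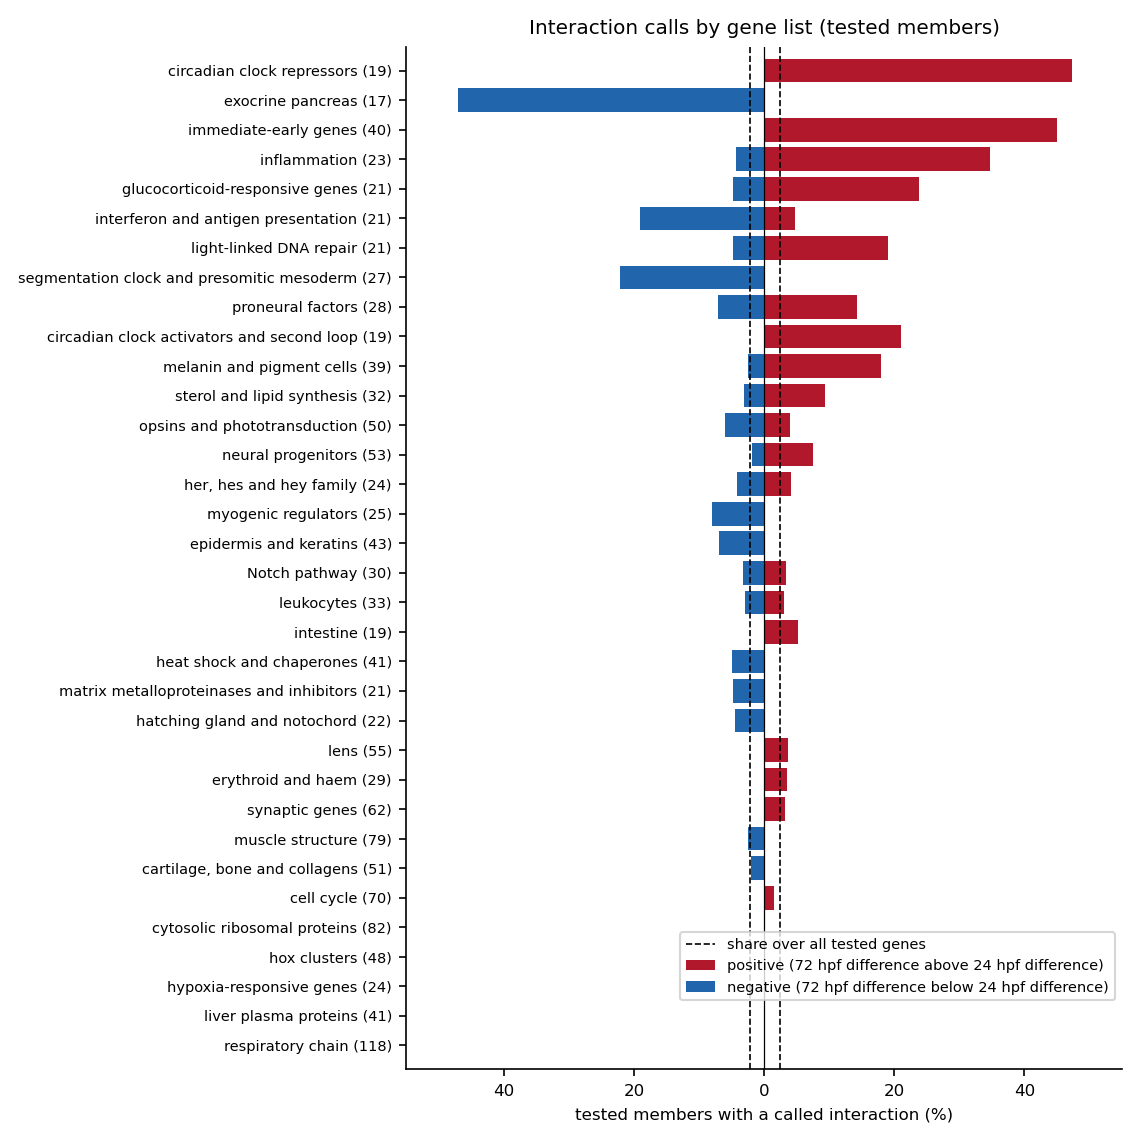
Percent of the tested members of each gene list with a called interaction, positive to the right and negative to the left, with the number tested in parentheses; dashed lines mark the shares over all 20738 genes, 2.5% positive and 2.15% negative. Clock repressors (47.4%), exocrine pancreas (47.1%) and immediate-early genes (45%) have the longest bars, and 5 lists have none. The lists were chosen with earlier results of these data known.

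Interferon and antigen presentation genes had 1 positive and 4 negative interactions of 21 (23.8%, against 4.64% of all genes), among them b2ml, a beta-2-microglobulin gene, at 47.7, 48 and 47.4 CPM in KO-labelled and 75.3, 92.2 and 86.8 CPM in WIK libraries at 72 hpf (interaction -0.66 ± 0.14, adjusted p = 0.0099). This list's 5 calls became 3 without any 1 of her3_KO_72hpf replicates 2 and 3, WIK_72hpf replicate 2 and her3_KO_24hpf replicates 2 and 3. In the sterol and lipid list 3 of 32 were positive and 1 negative (12.5%), and 2 were called without her3_KO_24hpf replicate 2 or WIK_72hpf replicate 3. The negative member passed the filter only through the WIK libraries at 72 hpf. At 24 hpf it averaged 0.0357 CPM in KO-labelled and 0.0347 CPM in WIK libraries, too low to measure a difference at that age. FDPS, a prenyl diphosphate synthase, had 104 ± 6.73 CPM in KO-labelled and 175 ± 9.1 CPM in WIK libraries at 24 hpf (SD, n = 3 each) and no called difference at 72 hpf (interaction 0.89 ± 0.18, adjusted p = 0.0084). The her, hes and hey family had 1 positive and 1 negative call of 24 (8.33%, against 4.64% of all genes), and 3 positive and 1 negative without WIK_24hpf replicate 3. The 2 calls were her4.2 at 0.58 ± 0.13 (adjusted p = 0.013, and 0.051 without the 2 libraries that stood apart) and her7. Notch pathway genes had 1 positive and 1 negative call of 30 (6.67%). RBPJ (ENSDARG00000003398), the DNA-binding partner of Notch, was negative at -0.44 ± 0.09 (adjusted p = 0.01). DTX4 was positive at 0.79 ± 0.18 (adjusted p = 0.02, and 0.053 at most without WIK_72hpf replicate 3 or her3_KO_24hpf replicate 3). Heat shock and chaperone genes had 0 positive and 2 negative calls of 41 (4.88%), and 3 positive and 1 negative without WIK_24hpf replicate 1. SERPINH1 (ENSDARG00000019949), the collagen chaperone HSP47 and 1 of the 2, had 189.7, 174 and 141 CPM in KO-labelled and 492, 454 and 402 CPM in WIK libraries at 72 hpf. SERPINH1 levels at 24 hpf were 234, 263 and 250.0 CPM in KO-labelled and 356, 265 and 251 CPM in WIK libraries (interaction -1.21 ± 0.19, adjusted p = 0.0014).

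In the lists of tissues that make up much of the embryo 1.96% to 8% of the tested members were called, against 4.64% of all genes. Several of these counts moved with the settings. Muscle structure had 0 positive and 2 negative interactions of 79 (2.53%), and cartilage, bone and collagens 0 and 1 of 51 (1.96%). Myogenic regulators had 0 and 2 of 25 (8%), epidermis and keratins 0 and 3 of 43 (6.98%), and hatching gland and notochord 0 and 1 of 22 (4.55%). Leukocyte genes had 1 positive and 1 negative of 33 (6.06%), erythroid genes 1 and 0 of 29 (3.45%), and metalloproteinases 0 and 1 of 21 (4.76%). Without single libraries the erythroid list had 6 positive calls without WIK_24hpf replicate 3, 1 without WIK_24hpf replicate 2 or her3_KO_24hpf replicate 2 and 0 without any of the other 9. It had 5 positive and 1 negative with plain CPM scaling and 7 positive with quantile normalization. The epidermis list had 5 negative calls without WIK_24hpf replicate 1, and 1 without any 1 of her3_KO_72hpf replicates 2 and 3, WIK_72hpf replicate 3 and her3_KO_24hpf replicates 1 and 3. It had 7 with plain CPM scaling and 9 with quantile normalization. Over the single libraries left out, the calls of both signs numbered 1 to 5 for muscle structure (5 without WIK_24hpf replicate 3), 0 to 4 for hatching gland and notochord (4 without her3_KO_72hpf replicate 1), 1 to 3 for cartilage, bone and collagens (3 without WIK_24hpf replicate 1) and 1 to 4 for leukocytes (4 without WIK_24hpf replicate 2). The positive leukocyte gene, MFAP4 (ENSDARG00000088745), a marker of zebrafish macrophages, had 10.3, 12.1 and 8.6 CPM in KO-labelled and 4.83, 3.03 and 3.05 CPM in WIK libraries at 72 hpf. MFAP4 at 24 hpf had 5.65, 6.69 and 7.84 CPM in KO-labelled and 13.8, 7.13 and 7.32 CPM in WIK libraries (interaction 1.81 ± 0.33, adjusted p = 0.0043). Both MPEG1 genes, which encode a macrophage perforin, gave 0.81 ± 0.25 and -0.16 ± 0.21 and did not pass (adjusted p = 0.079 and 0.68). The cell cycle list had 1 call of 70 (1.43%), CCNE2, a cyclin of S phase entry, at 0.62 ± 0.12 (adjusted p = 0.0068). No interaction was called among 118 respiratory chain genes, 82 cytosolic ribosomal protein genes, 48 hox genes or 24 hypoxia-responsive genes, and leaving out a single library gave at most 1 call in any of these 4 lists.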

How the data were processed

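Poly(A) RNA libraries made with a directional kit from pools of whole zebrafish embryos were sequenced. The deposited table holds CPM per gene for 18 libraries and 25535 Ensembl genes. Per the submitters' processing notes the tools were HISAT2 2.2.1, SAMtools 1.10, featureCounts 2.0.2 and edgeR 3.34.0, with build danRer11. Whether strand was used in counting is not given in the sources used here. Overlapping and near-identical genes may share reads. The deposited CPM values were all whole multiples of what 1 read is worth in their library (100% within 0.01 reads), which gave 14214136 to 23135995 reads per library. CPM summed to 912145 to 1206849 per library, since scaling used effective library sizes.

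The filter kept 20738 genes that reached 1 CPM in 3 or more of the 18 libraries and removed 4797. log2(CPM + 0.5) was fitted with limma 3.58.1 in R 4.3.3, with 1 mean for each of the 6 groups, moderated with trend and robust settings on 12 residual degrees of freedom. The morpholino groups entered the filter and the estimate of the spread, and not the differences. Differences on this scale understate the change of low genes. P-values were adjusted by the Benjamini-Hochberg method across all tested genes. Figures were drawn with matplotlib 3.10.9.

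The genes compared and the gene lists were chosen with earlier results of these data known. Named genes are her3, the 5 most positive and 5 most negative interactions of at least 2-fold called at 1 age only, and the 3 most positive and 3 most negative of those called at both ages in opposite directions, at both in the same direction, or below 1 CPM at 1 age. The knockout-labelled and WIK values of these genes do not overlap at the ages where the difference was called. From each list up to 6 called members with the smallest adjusted p are named. Members that did not pass, and hamp and the second CRY1, PER3, BMAL1, PTF1A, il1b, tnfb and MPEG1 genes, were named after their values were seen. Clone-named genes were left out of the naming. A gene that the rule for lists would name is not reported here. Symbols came from a table of gene names, which gave 23539 of the 25535 genes a symbol, often in the human spelling. Where several genes share a symbol the Ensembl identifier is printed. Same-numbered libraries were not paired in the fit. The alternatives tried were other scalings, pseudocounts, filters, sets of samples, blocks, moderation, voom weights on the recovered reads, and leaving out libraries.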

Additional observations from a re-analysis of the deposited data

Results flagged for a closer look

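The difference of KO-labelled from WIK embryos at 72 hpf and that at 24 hpf were themselves different, by the interaction term in limma, for 963 genes. Among the genes named, 18 had differences called at both ages in opposite directions together with a called interaction.

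Of these, 15 were higher in KO-labelled embryos at 72 hpf and lower at 24 hpf. The interaction, in log2(CPM + 0.5), was 4.49 for PTGS2 (ENSDARG00000010276), 3.41 for PER2, 2.88 for FOXQ1, 2.60 for FOSB and 2.4 for fosaa. It was 1.69 for CEBPB, 1.51 for ier2b, 1.41 for CEBPD, 1.29 for JUND and 1.15 for PTGS2 (ENSDARG00000004539). It was 0.97 for SQLE (ENSDARG00000079946), a squalene epoxidase of sterol synthesis, and 0.89 for NFIL3, 0.86 for TFAP2E, 0.70 for EBF2 and 0.65 for tefa. The other 3 were lower in KO-labelled embryos at 72 hpf and higher at 24 hpf, with -1.46 for cxcl12b, -1.54 for rabgap1l2 and -2.20 for krt99. For ier2b the groups overlapped at 24 hpf, at 29.8, 31 and 26.8 CPM in KO-labelled and 54.8, 30.2 and 46.2 CPM in WIK libraries. The naming rule itself required no overlap for PTGS2 (ENSDARG00000010276), PER2, FOXQ1, krt99, rabgap1l2 and cxcl12b. WIK replicate 2 was the lowest of the 3 WIK libraries at 24 hpf for both PTGS2 genes, FOXQ1, fosaa, CEBPB, ier2b, CEBPD, JUND and TFAP2E. It was not the lowest for PER2, FOSB, SQLE, NFIL3, EBF2 and tefa. These genes were picked by a contrast that includes the WIK libraries at 24 hpf, and the part of this split in the interactions was not tested.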

How the results depend on the processing

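No interaction of a named gene changed sign in 28 alternative settings. Of 121 named genes with a called interaction 73 kept the call in each setting that tested them and 84 kept it without each single library; 26 lost it with voom weights and 29 with a replicate block within age. Leaving out 1 library at a time gave 559 to 1228 called genes (963 with all), 320 to 620 positive, 239 to 608 negative and 350 to 637 at least 2-fold, with 1418 to 3116 genes called at 72 hpf and 1523 to 3394 at 24 hpf. At least 2-fold interactions numbered 462, against 252 with a pseudocount of 2, 296 with at least 5 CPM in 3 libraries and 278 with a mean of at least 1 CPM at each age, where fewer genes were tested under either filter. Voom on the recovered reads called 642 genes, 277 of them negative. Without the 4 libraries of the series that stood apart (WIK_24hpf replicate 1, her3_KO_72hpf replicate 3, and 1 of each morpholino group) 2237 genes were called, 1110 positive and 1127 negative, and 4645 at 72 hpf; the cause was not tested.

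Other scalings moved the median interaction of all genes by less than 0.1. The positive share of the calls was 53.8%, and 49.6 to 58.3% in the other settings. Correlations between libraries were taken after the mean of its group was subtracted from each library, gene by gene. On these deviations same-numbered libraries correlated at -0.231 to 0.266, some below libraries of other numbers. The deviations of the 3 libraries of a group sum to 0 for each gene, so the correlations are not independent of each other. At 72 hpf each KO-labelled library correlated most with the WIK library of its own number, at 0.111, 0.0588 and 0.241. At 24 hpf this held for replicate 3 only, at 0.137 against 0.136 with WIK replicate 2. These values do not settle whether the replicate numbers pair the libraries. With the replicate number as a block 836 genes were called, and with a replicate block within age 583, of which 315 were positive and 268 negative. The count tests of edgeR and DESeq2 planned on recovered reads were not run. With 3 pools per group, and many genes near 0 at 1 age, a small interaction may be missed.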
